A study of Mus musculus with 8 samples.

Results

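Osteoblasts (OBs), the cells that build bone, were divided by their level of Col1a1 into early, differentiating and mature cells in 4 wild type (WT) libraries of mouse parietal bone, and the transcriptomes of these stages were compared within each library. Measured values chose the cells. A cell entered with at least 500 detected genes, mitochondrial transcripts under 10% of its unique molecular identifiers (UMIs, each standing for a captured transcript), 10 or more UMIs of Col1a1, and, for 2 or 3 of the genes Runx2, Sp7 and Ibsp, 2 or more UMIs apiece. Col1a1 under 0.75% of a cell's UMIs made it an early OB (eOB), over 3.5% a mature OB (mOB), and anything between a differentiating OB (dOB). The rule took 1706 of the 25697 WT cells that passed quality control, in a series of 46420 such cells. Of these OBs 249 were eOBs (14.6%), 800 dOBs (46.9%) and 657 mOBs (38.5%), so the comparison of mature with early cells rested on 906 cells.

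The series held 8 droplet libraries of parietal bone cells, 4 WT and 4 heterozygous (Het) for a glycine to cysteine substitution in Col1a2, from pups of strain B6.129(FVB)-Col1a2tm1Mcbr/J at postnatal days 4 to 5. A library pooled the cells of up to 5 pups of 1 genotype, so single animals could not be told apart and the library was the replicate. WT libraries S1 and S2 and Het libraries S3 and S4 were made with version 3 of the 10x Genomics kit. WT S5 and S6 and Het S7 and S8 were made with version 3.1 and counted with a later release of Cell Ranger. Effects of kit, of software and of any other difference between these groups of libraries cannot be told apart.

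OBs arise from mesenchymal progenitors, in the skull those of the sutures and the periosteum, under the transcription factors Runx2 and Sp7. As they mature they secrete a matrix made mostly of type I collagen, add noncollagenous proteins such as osteocalcin, and let mineral form in it, and some become buried in bone as osteocytes. Col1a1, Runx2, Sp7 and Ibsp chose the cells and are given only as a description. On average over the 4 libraries Col1a1 made up 0.361% of the summed UMIs in eOBs, 1.85% in dOBs and 9.74% in mOBs. Runx2 made up 0.111%, 0.120% and 0.112%, Sp7 0.0122%, 0.0191% and 0.0266%, and Ibsp, a sialoprotein of mineralizing matrix, 0.0692%, 0.225% and 0.462%. The cells nearest the lower limit had 0.746% and 0.752% Col1a1, with 22 cells within 10% below it and 25 above. Those nearest the upper limit had 3.498% and 3.507%, with 83 and 64 cells as close.

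UMIs were summed per library and stage. The sums held 321048 to 1296848 UMIs in eOBs, 467750 to 6304261 in dOBs and 1382174 to 4805858 in mOBs. Library S2 had the fewest eOBs, 23, against 81 in S1, 95 in S5 and 50 in S6. No OB barcode was shared by any pair of libraries. The first principal component of the 12 sums took 52.69% of the variance and separated S1 and S2 from S5 and S6, and the second, with 18.6%, separated eOBs from mOBs. The median UMIs per cell averaged 11146.5 ± 2801 (SD, n = 4 libraries) in eOBs and 15833 ± 3929 in mOBs, with mOBs above eOBs in 4 of 4 libraries (two-sided exact sign-flip test over libraries, p = 0.12, the smallest p that 4 libraries allow). Cells that matched simulated doublets made up 12.4% ± 9.52 of eOBs and 4.27% ± 2.76 of mOBs (exact p = 0.25) and were kept.

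A large part of the transcriptome differed between the stages, in both directions. Of 10162 genes tested 2264 differed between mOBs and eOBs (22.3%, adjusted p under 0.05 in edgeR's quasi-likelihood test with the library as a block), 1197 of them higher in mOBs (11.8%) and 1067 lower (10.5%). Without the selection genes 1194 were higher and 1067 lower, and these are the genes described from here on. Of the higher genes 1126 were higher in mOBs in 4 of 4 libraries, and of the lower genes 829 were lower in 4 of 4, with another 22 lower where detected and without a UMI at either stage in at least 1 library. The sign was opposite in the kit versions for 21 higher and 93 lower genes. Without the library as a block 695 genes were called.

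Levels are given as counts per 1000000 UMIs (CPM) after TMM scaling, which sets the bulk of genes level between sums, in the order S1, S2, S5, S6. Changes are log2 fold changes of mOBs over eOBs with their standard error, and adjusted p-values are those of edgeR over all genes. The median change over all genes was -0.03 with TMM scaling and -0.46 on library totals, where 588 genes were called higher and 4238 lower. Counts of a list are read against 11.8% higher and 10.5% lower over all genes.

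**Figure D1:**
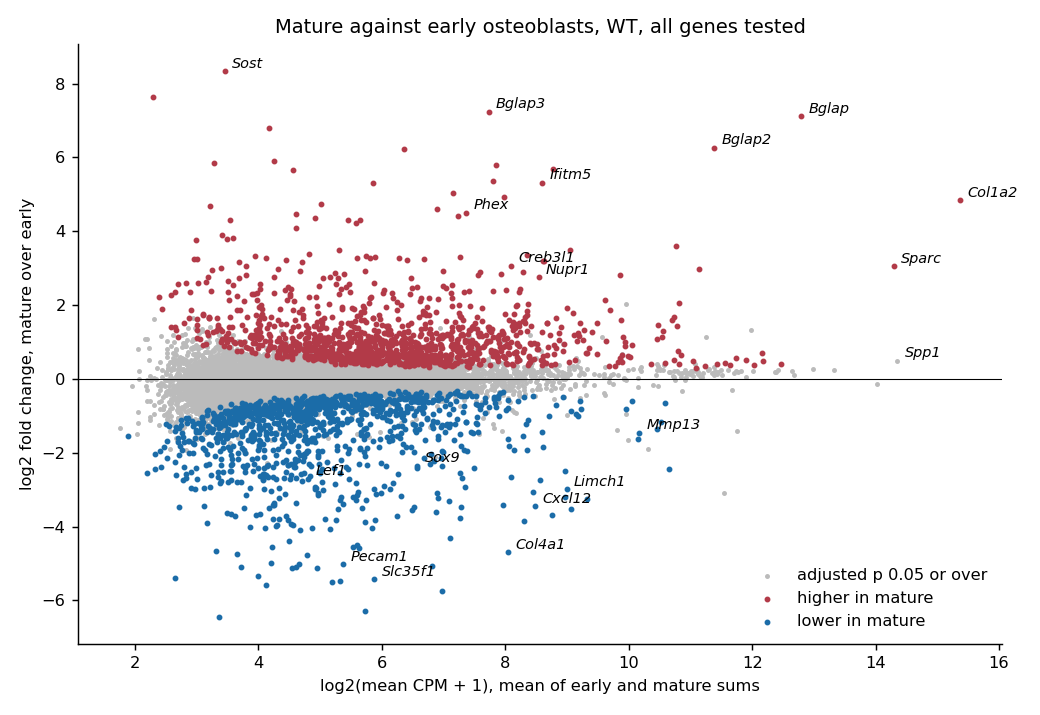
Log2 fold change of mOBs over eOBs against mean level, log2(mean CPM + 1), for each gene tested in WT libraries other than the 4 selection genes. Red points are the 1194 genes called higher, blue points the 1067 called lower and grey points the rest, and among the labelled genes the Bglap genes and Sost stand at the top and Pecam1, Slc35f1 and Col4a1 at the bottom.

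More genes were called in the step from dOBs to mOBs than in the step from eOBs to dOBs. From eOBs to dOBs 484 genes were called (4.76%), 191 higher (1.88%) and 293 lower (2.88%), and from dOBs to mOBs 1581 (15.6%), 855 higher (8.41%) and 726 lower (7.14%). Both steps use the dOB sums and the number of cells differs between stages, so these counts were not tested against each other. Of the 1194 genes higher in mOBs 71 were called higher in both steps, 78 in the first alone, 624 in the second alone and 421 in neither. Of the 1067 lower genes 95 were called lower in both steps, 167 in the first alone, 347 in the second alone and 458 in neither. The mean level in dOBs lay between those of eOBs and mOBs for 1031 of the higher and 901 of the lower genes.

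Proteins of mineralizing matrix were mostly higher in mOBs. Of 18 tested members 11 were higher, 3 lower and 4 not called, with a median change of 2.49 against -0.03 over all genes, and 2.07 on library totals. Without S5 or S6 1 member was lower. Bglap encodes osteocalcin, a calcium-binding protein that mature OBs secrete. It measured 131, 113, 56.9 and 55.3 CPM in the eOBs of S1, S2, S5 and S6, and 21005, 23729, 5168 and 6538 CPM in their mOBs. All 4 mOB values lay above all 4 eOB values, and S1 and S2 were higher than S5 and S6 at both stages. The change was 7.12 ± 0.24 (adjusted p = 3.07e-08), made up of 1.47 from eOBs to dOBs (adjusted p = 0.0018) and 5.65 from dOBs to mOBs (adjusted p = 1.68e-07). In haematopoietic-like cells of these libraries, which should make no osteocalcin, Bglap took 0.00236% of UMIs on average, against 0.00976% in eOBs and 1.06% in mOBs.

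Bglap2 and Bglap3, neighbours of Bglap with near-identical coding sequence, changed by 6.26 ± 0.30 (adjusted p = 3.95e-07) and 7.23 ± 0.31 (adjusted p = 1.83e-07). Reads of the 3 genes may have been split between them in counting, so their separate values are uncertain. Bglap lies at chr3:88383501-88384464, Bglap2 at chr3:88377736-88378699 and Bglap3 at chr3:88368616-88372743, all on the minus strand of GRCm38. Ifitm5 (chr7:140948958-140950291, minus strand), which encodes a membrane protein of mineralizing OBs, measured 21.7, 52.0, 10.6 and 8.65 CPM in eOBs and 1127, 1118, 452 and 311 in mOBs. The stages did not overlap, and the change was 5.32 ± 0.43 (adjusted p = 9.76e-06).

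The 250 bases before the RefSeq transcription starts of Bglap, Bglap3 and Ifitm5 are shown because these genes were among the 10 largest rises. They are from GRCm38.p6, read on the gene's strand from 5′ to 3′, and capitals mark ACCACA, a core of the RUNX motif. The Bglap window is chr3:88384467-88384716, that of Bglap3 chr3:88372742-88372991 (the one furthest upstream of its 3) and that of Ifitm5 chr7:140950244-140950493, all on the minus strand.
Bglap: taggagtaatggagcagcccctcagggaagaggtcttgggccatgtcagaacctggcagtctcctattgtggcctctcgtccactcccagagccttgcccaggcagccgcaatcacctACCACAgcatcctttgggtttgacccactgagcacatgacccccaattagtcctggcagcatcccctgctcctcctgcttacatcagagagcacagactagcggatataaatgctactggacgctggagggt
Bglap3: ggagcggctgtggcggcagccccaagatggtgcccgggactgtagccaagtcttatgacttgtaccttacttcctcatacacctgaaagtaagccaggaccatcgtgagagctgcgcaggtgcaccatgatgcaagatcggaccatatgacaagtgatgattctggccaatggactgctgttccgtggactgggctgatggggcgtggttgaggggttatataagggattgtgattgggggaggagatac
Ifitm5: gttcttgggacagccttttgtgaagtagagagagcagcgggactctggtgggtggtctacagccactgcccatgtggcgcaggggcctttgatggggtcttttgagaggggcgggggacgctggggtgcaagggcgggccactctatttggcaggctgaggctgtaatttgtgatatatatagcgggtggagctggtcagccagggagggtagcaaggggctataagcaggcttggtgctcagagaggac
The motif was searched as ACCACA and, for the other strand, as TGTGGT. In the Bglap window it starts 132 bases upstream, and these letters are in neither the Bglap3 window shown nor the Ifitm5 window. The other Bglap3 windows are not described here. The motif was in 117 of 1193 windows of genes higher in mOBs (9.81%, 933 of 1194 genes matched), in 110 of 1117 windows of lower genes (9.85%, 808 of 1067 genes), in 1035 of 10325 windows of all tested genes (10.0%, 8001 of 10158 genes) and in 4614 of 32851 windows of all genes (14.0%). These shares describe the windows only.

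Smpd3, Slc13a5 and Sparc of the same list were higher as well. Smpd3, a sphingomyelinase needed for mineralization, measured 7.96, 21.4, 16.5 and 13.8 CPM in eOBs and 1482, 1036, 499 and 417 in mOBs, a change of 5.69 ± 0.50 (adjusted p = 1.48e-05) that was 5.05 without S1. Slc13a5, a citrate transporter, was near 0 in eOBs (0.724, 0, 1.32 and 5.19 CPM) and measured 216, 168, 158 and 102 CPM in mOBs. Its change of 6.22 ± 0.51 (adjusted p = 1.15e-05) was 7.51 without S6, the library with the highest eOB value. Sparc, a collagen-binding protein of bone matrix, rose from 2498, 2485, 8501 and 5929 CPM to 42558, 40917, 28607 and 29755 CPM (3.05 ± 0.35, adjusted p = 0.000101). S5 and S6 were the high libraries in eOBs and the low ones in mOBs.

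Dmp1, an acidic matrix protein of late OBs and osteocytes, measured 138, 342, 53.6 and 39.8 CPM in eOBs and 432, 681, 254 and 389 in mOBs (2.0 ± 0.34, adjusted p = 0.00133). The stages overlapped across libraries, since the eOBs of S2 were above the mOBs of S5, but the level rose within each library. Spp1 (osteopontin) was at 23601, 39542, 5354 and 8439 CPM in eOBs and 26889, 40868, 11694 and 11122 in mOBs and was not called (0.48 ± 0.29, adjusted p = 0.275, with 0.23 without S5 and -0.43 by limma). Alpl, the alkaline phosphatase that frees phosphate for mineral, was not called either (0.38 ± 0.33, adjusted p = 0.471, with 0.80 without S1 and -0.07 without S5). It was at 652, 504, 179 and 347 CPM in eOBs and 404, 359, 641 and 664 in mOBs, lower in the mOBs of S1 and S2 and higher in those of S5 and S6. Slc20a2, a phosphate transporter, was lower in mOBs, at 476, 312, 83.3 and 240 CPM in eOBs and 35.7, 35.1, 30.6 and 38.7 in mOBs (-2.69 ± 0.29, adjusted p = 6.69e-05).

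**Figure D2:**
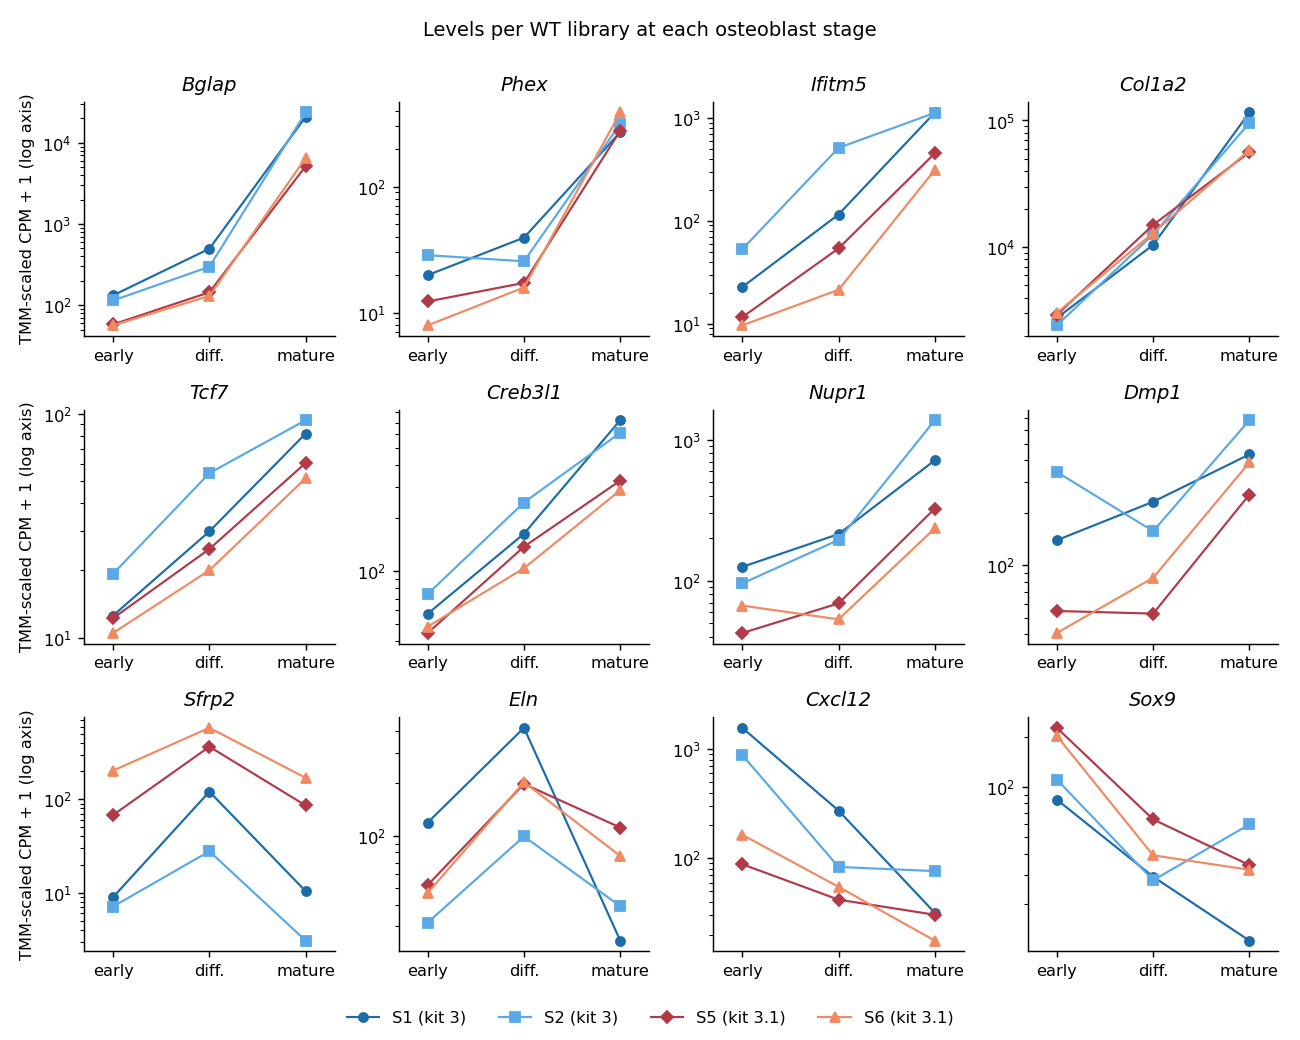
Level of 12 genes, TMM-scaled CPM + 1 on a log axis, at the 3 stages, with 1 line per WT library (blues, kit version 3; reds, kit version 3.1). Bglap, Phex, Ifitm5, Col1a2, Tcf7, Creb3l1, Nupr1 and Dmp1 are higher in mOBs than in eOBs in each library, Cxcl12 and Sox9 are lower, and Sfrp2 and Eln are highest in dOBs.

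The 10 largest rises among genes of at least 20 CPM also held Cgref1, Ranbp3l and Hrc. Cgref1, a calcium-binding growth regulator, went from 7.96, 3.06, 7.94 and 13 CPM to 677, 582, 258 and 235 CPM (5.37 ± 0.41, adjusted p = 6.87e-06). Ranbp3l, a nuclear export factor, went from 0.724, 3.06, 2.65 and 5.19 CPM to 117, 107, 99.3 and 118 CPM (5.30 ± 0.29, adjusted p = 8.67e-07). Neither gene's stages overlapped, and Ranbp3l reached nearly the same mOB level in all 4 libraries. Hrc, a calcium-binding protein gene, had 3 UMIs in the eOB sums and 321 in the mOB sums, a ratio per UMI of 33.3 with a 95% counting interval of 11.3 to 162.

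Genes of osteocytes, the cells that OBs become inside bone, were called more often in the second step, as genes were overall. Of 15 tested members 8 were higher in mOBs, 1 lower and 6 not called (median 1.18, or 0.74 on library totals), and 8 were called higher from dOBs to mOBs (8.41% of all genes) against 1 from eOBs to dOBs (1.88% of all genes), a difference that was not tested. Phex, an endopeptidase of phosphate balance, was at 18.8, 27.5, 11.2 and 6.92 CPM in eOBs and 269, 313, 277 and 386 in mOBs, with no overlap (4.50 ± 0.33, adjusted p = 5.41e-06). It changed by 0.60 from eOBs to dOBs (adjusted p = 0.463) and by 3.90 from dOBs to mOBs (adjusted p = 1.3e-05). Dkk1, a secreted inhibitor of Wnt signalling, measured 5.79, 18.3, 1.98 and 0.865 CPM in eOBs and 111, 142, 48.9 and 65.8 in mOBs (4.31 ± 0.51, adjusted p = 0.000118). Ackr3, a scavenging chemokine receptor, changed by 2.49 ± 0.44 (adjusted p = 0.00166), and by 3.1 without S5.

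Sost encodes sclerostin, the Wnt inhibitor made by osteocytes. It had 0 UMIs in eOBs, out of 3831792 over the 4 libraries, and 163 UMIs in mOBs, out of 12300439. Set against a floor of 3 UMIs over the eOB sums, it was at least 16.9-fold higher in mOBs. In mOBs S1 had 18 UMIs, S2 39, S5 60 and S6 46, and in each library 12 to 14 of them came from 1 cell. The intervals and the floor cover counting error only. Kcnk2, a potassium channel gene on the osteocyte list, went from 218, 235, 17.9 and 43.2 CPM to 12.8, 33.1, 7.29 and 5.68 (-2.83 ± 0.35, adjusted p = 0.000161), lower in mOBs in each library.

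Collagen chains other than Col1a1 changed in both directions. Of 23 tested 7 were higher, 7 lower and 9 not called, with a median of 0.36 that was -0.07 on library totals, -0.12 without S5 and -0.09 without S6. Col1a2, the partner chain of Col1a1 in type I collagen, was at 2764, 2418, 2928 and 3036 CPM in eOBs and 115598, 95776, 56217 and 58298 CPM in mOBs (4.84 ± 0.25, adjusted p = 6.15e-07). The mOBs of S1 and S2 were above those of S5 and S6, and since the cells were chosen on the other chain of the same protein, this change lies close to the rule itself. Col22a1, a chain known from tissue junctions, rose from 5.79, 9.17, 7.94 and 7.78 CPM to 686, 493, 320 and 314 CPM (5.81 ± 0.28, adjusted p = 4.27e-07). Col5a1 and Col5a2, whose protein sits within type I fibrils, changed by 2.83 ± 0.14 (adjusted p = 4.46e-07) and 2.96 ± 0.16 (adjusted p = 6.15e-07). Col24a1, a minor fibrillar chain, was at 0, 0, 13.9 and 22.5 CPM in eOBs and 124, 124, 479 and 363 in mOBs (5.04 ± 0.43, adjusted p = 1.36e-05, and 5.90 without S6).

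Col4a1 and Col4a2, chains of basement membranes, were lower. Col4a1 measured 281, 153, 657 and 940 CPM in eOBs and 19.6, 8.26, 27.5 and 18.1 in mOBs (-4.70 ± 0.42, adjusted p = 1.9e-05), and Col4a2 changed by -3.47 ± 0.36 (adjusted p = 4.3e-05). Both are abundant in endothelial cells, whose markers were also higher in eOBs (values below). OBs holding at least 3 markers of haematopoietic, endothelial, smooth muscle and pericyte, fibroblast or osteoclast cells were left out in an alternative, named marker removal from here on, which used neither erythroid nor chondrocyte markers. With it Col4a1 changed by -2.71 (adjusted p = 1.31e-05). Col3a1, a fibrillar chain of soft connective tissue, did not pass the test (1.33 ± 0.51, adjusted p = 0.0868). It was at 2046, 1950, 1539 and 1623 CPM in eOBs and 1517, 1713, 11015 and 10921 in mOBs, so that it was lower in the mOBs of S1 and S2 and higher in those of S5 and S6, and its adjusted p was 0.0182 without S1.

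Enzymes and chaperones that modify, fold and process procollagen were largely higher in mOBs. Of 34 tested members 25 were higher (against 11.8% of all genes), 0 lower and 9 not called, with a median of 1.13. On library totals 20 were higher and 3 lower, with a median of 0.68. Creb3l1, a transcription factor of the endoplasmic reticulum (ER) membrane that acts on collagen genes, was at 56.4, 73.4, 43.6 and 47.6 CPM in eOBs and 722, 613, 327 and 288 in mOBs (3.07 ± 0.19, adjusted p = 1.99e-06). It was called in both steps, with changes of 1.51 and 1.56. Lox, the oxidase that crosslinks collagen, went from 112, 70.3, 35.1 and 34.6 CPM to 691, 567, 559 and 527 (3.35 ± 0.24, adjusted p = 5.4e-06). The stages of neither gene overlapped.

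Further steps of procollagen assembly were called as well. Fkbp11, a prolyl isomerase of the ER, changed by 2.91 ± 0.28, and the prolyl hydroxylase subunits P4ha1 and P4ha2 by 1.98 ± 0.30 and 2.45 ± 0.29. Serpinh1 encodes HSP47, the chaperone of the procollagen triple helix. It measured 898, 767, 1096 and 942 CPM in eOBs and 3597, 2925, 1813 and 2085 in mOBs (1.43 ± 0.22, adjusted p = 0.000725), with no overlap. The members of the prolyl 3-hydroxylation complex, Crtap (1.16 ± 0.21), P3h1 (1.6 ± 0.19) and Ppib (0.91 ± 0.12), and the C-propeptidase Bmp1 (1.44 ± 0.12) with its enhancer Pcolce (1.6 ± 0.14) were higher. The lysyl hydroxylase Plod2 (0.31 ± 0.22, adjusted p = 0.368) and the N-propeptidase Adamts2 (0.55 ± 0.20, adjusted p = 0.0733) were not called.

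Genes of translocation into the ER and of transport between ER and Golgi showed a similar count. Of 38 tested 32 were higher, 0 lower and 6 not called, with a median of 0.92, and on library totals 23 were higher and 2 lower with a median of 0.46. Sec24d, a cargo adaptor of COPII vesicles, was at 28.2, 18.3, 130 and 119 CPM in eOBs and 181, 140, 297 and 293 in mOBs (1.78 ± 0.24, adjusted p = 0.000292). The eOBs of S5 and S6 nearly reached the mOBs of S2, but the stages did not overlap. Lman1, a cargo receptor, changed by 1.52 ± 0.15, Kdelr3, which returns ER proteins, by 1.68 ± 0.22, and Mia3 (TANGO1), which loads procollagen into vesicles, by 1.07 ± 0.14. The coat protein Sec31a changed by 1.44 ± 0.13 and the translocon subunit Sec61a1 by 1.40 ± 0.15.

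Of 24 tested genes of ER chaperones and the unfolded protein response 6 were higher, 2 lower and 16 not called, against 11.8% higher and 10.5% lower over all genes. Without S1 or S5 4 were higher and 1 lower. Their median was 0.15, which turned to -0.30 on library totals, with 3 higher and 9 lower. Hspa5, the main ER chaperone (BiP), measured 919, 1030, 524 and 501 CPM in eOBs and 607, 519, 493 and 478 in mOBs and was not called (-0.42 ± 0.15, adjusted p = 0.0707, with -0.24 without S2). It was lower in mOBs in each library, and its change of -0.57 from dOBs to mOBs was called (adjusted p = 0.0267). Between eOBs and mOBs Hspa5 was called lower with marker removal (-0.66, adjusted p = 0.0149) and by limma (-0.91, adjusted p = 0.00875). The same held with cells thinned to 2000 UMIs (-0.58, adjusted p = 0.0453). It was not called with cells of over 1% Col2a1 (-0.35) or simulated doublets (-0.40) left out. Calr (calreticulin) was lower at -0.59 ± 0.12 (adjusted p = 0.00473). Pdia6, a disulfide isomerase, was called lower at -0.50 ± 0.15 (adjusted p = 0.0353), but not without S1 (-0.51), S2 (-0.40) or S5 (-0.46).

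Sensors and regulators of the same response were among the higher genes. Xbp1, a transcription factor of the secretory pathway, went from 116, 119, 69.4 and 74.4 CPM to 281, 245, 151 and 138 (1.09 ± 0.13, adjusted p = 0.000119), and Ern1, the kinase that activates it, changed by 1.1 ± 0.15 (adjusted p = 0.000334). By limma neither was called, with Xbp1 at 0.50 (adjusted p = 0.0553) and Ern1 at 0.09 (adjusted p = 0.792). Xbp1 was not called with cells thinned to 2000 UMIs either (0.66, adjusted p = 0.142). With marker removal both were called (0.97 for Xbp1 and 1.15 for Ern1). Edem1, of ER-associated degradation, changed by 1.1 ± 0.26 (adjusted p = 0.0103), with the call lost without S1 (0.83) or S5 (1.09). The chaperone Hsp90b1 (-0.05 ± 0.14) and the sensor Atf6 (-0.07 ± 0.15) were not called.

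Of 28 tested genes of the integrated stress response and amino acid supply 11 were higher, 1 lower (Slc1a5, a glutamine transporter) and 16 not called, with a median of 0.43 that was 0.00 on library totals. Nupr1, a stress-induced cofactor, went from 124, 94.8, 41.7 and 65.7 CPM to 713, 1374, 324 and 234 (2.75 ± 0.27, adjusted p = 2.93e-05), with no overlap. Aldh1l2, a mitochondrial folate enzyme, was at 2.17, 0, 5.29 and 6.92 CPM in eOBs and 135, 113, 52.7 and 61.8 in mOBs (4.23 ± 0.43, adjusted p = 4.32e-05, and 3.59 without S1). Enzymes that make proline, serine and asparagine were among those called, with Pycr1 at 2.18 ± 0.38, Psat1 at 1.65 ± 0.33 and Asns at 1.28 ± 0.29.

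The transcription factors of the stress response were not called. Atf4 changed by 0.55 ± 0.25 (adjusted p = 0.137, but 0.017 without S5), Atf5 by 0.27 ± 0.24 (adjusted p = 0.483) and Ddit3 by -0.16 ± 0.25 (adjusted p = 0.713). Of 11 mitochondrial chaperones and proteases 0 were higher and 0 lower in edgeR's test (2 at an unadjusted p under 0.05, with 0 called by DESeq2 and 3 lower by limma, median -0.06, and 6 lower on library totals). Hspa9, the mitochondrial HSP70, was at 97.7, 94.8, 88.0 and 67.4 CPM in eOBs and 110, 91.9, 78.6 and 85.2 in mOBs (0.08 ± 0.13, adjusted p = 0.749).

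**Figure D3:**
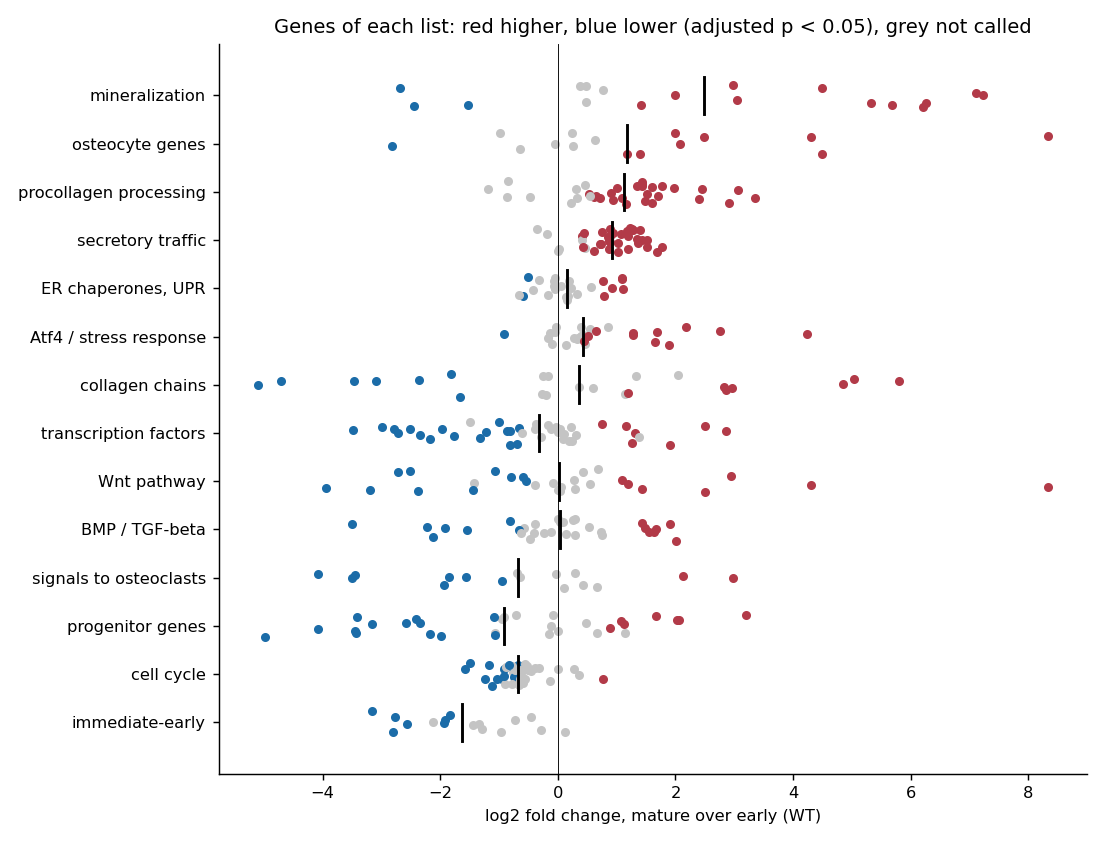
Log2 fold change of mOBs over eOBs in WT libraries for each tested gene of 14 lists, 1 point per gene, with red for genes called higher, blue for genes called lower, grey for genes not called and a black bar at each list's median. The medians of mineralization (2.49), procollagen processing (1.13) and secretory traffic (0.92) lie to the right of 0, and those of immediate early genes (-1.63) and cell cycle genes (-0.68) to the left.

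Among transcription factors of osteoblast fate 7 of 42 were higher, 17 lower and 18 not called (median -0.32). On library totals 6 were higher and 25 lower (median -0.74), and the median was -0.55 without S2 and -0.15 without S5. Dlx3, a homeobox factor of OBs, went from 11.6, 21.4, 4.63 and 3.46 CPM to 116, 75.4, 28.5 and 33.2 (2.86 ± 0.30, adjusted p = 4.97e-05). Mef2c, which acts on Sost in osteocytes, changed by 1.32 ± 0.15 (adjusted p = 0.000111) and the mesenchymal factor Twist1 by 1.26 ± 0.21 (adjusted p = 0.0013).

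Factors of less committed mesenchyme and of cartilage were among those that fell. Sox9, the master factor of cartilage, was at 83.2, 110, 226 and 201 CPM in eOBs and 11.1, 58.9, 33.2 and 31.0 in mOBs (-2.35 ± 0.29, adjusted p = 0.000166). The stages did not overlap, and the step called was that from eOBs to dOBs (-1.95, adjusted p = 0.00258). Chondrocyte markers were also higher in eOBs of S5 and S6 (values below), and with cells of over 1% Col2a1 left out the change of Sox9 was -1.52 (adjusted p = 0.00246). Ebf1, of stromal and adipocyte lineages, measured 676, 532, 868 and 1319 CPM in eOBs and 79.1, 123, 174 and 215 in mOBs (-2.51 ± 0.20, adjusted p = 8.38e-06), and its relative Ebf3 changed by -3.49 ± 0.33 (adjusted p = 2.49e-05).

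Foxc1 and Foxc2, needed for the skull roof, changed by -1.77 ± 0.15 and -2.99 ± 0.34, and the suture factor Six2 by -1.32 ± 0.26. Msx2, a homeobox factor of the sutures, was low, at 6.51, 3.06, 27.1 and 16.4 CPM in eOBs and 2.55, 3.1, 8.94 and 8.08 in mOBs (-1.23 ± 0.29, adjusted p = 0.0106), and its call was lost without S5 (-0.91) or S6 (-1.32). The homeobox factors Dlx5 (0.24 ± 0.27, with 0.62 without S1 and -0.09 without S6), Prrx1 (0.04 ± 0.12) and Msx1 (-1.49 ± 0.52, adjusted p = 0.0606) were not called.

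In the Wnt pathway 7 of 28 tested members were higher, 10 lower and 11 not called, with a median of 0.02 that was -0.39 on library totals. Without S6 5 were higher and 5 lower of 29, and the median was -0.18 without S5. Besides Sost and Dkk1, the ligand gene Wnt10b rose from a mean of 1.65 to 15.4 CPM (2.94 ± 0.38). The coreceptor Lrp5 went from 24.6, 30.6, 36.4 and 51.9 CPM to 91.9, 93.0, 92.2 and 109 (1.43 ± 0.15, adjusted p = 4.6e-05), with no overlap. Among ligands, inhibitors and agonists that fell were the inhibitor Dkk2 (-3.95 ± 0.54), the agonist Rspo3 (-3.19 ± 0.33), the ligand Wnt4 (-2.37 ± 0.24) and the inhibitor Wif1 (-0.59 ± 0.14).

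The Wnt effectors Tcf7 and Lef1 went opposite ways. Tcf7 was at 11.6, 18.3, 11.2 and 9.51 CPM in eOBs and 80.8, 93.0, 59.5 and 50.7 in mOBs (2.50 ± 0.17, adjusted p = 2.84e-06). Lef1 was at 25.3, 36.7, 68.8 and 54.5 CPM in eOBs and 5.11, 10.3, 9.41 and 5.90 in mOBs (-2.71 ± 0.27, adjusted p = 3.27e-05). Neither gene's stages overlapped, and both changes were called in each of the steps.

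In the BMP and TGF-beta pathway 7 of 31 tested members were higher and 7 lower, with a median of 0.03. On library totals 5 were higher and 14 lower (median -0.40), and by limma 5 and 12. Tgfb1, the ligand stored in bone matrix, rose from 76.7, 113, 74.7 and 71.8 CPM to 329, 337, 278 and 284 (1.91 ± 0.12, adjusted p = 2.49e-06). Bmp3, a ligand that opposes other BMPs, rose from 44.1, 42.8, 32.4 and 7.78 CPM to 174, 160, 80.2 and 89.8 (2.01 ± 0.32, adjusted p = 0.000848). The stages of neither gene overlapped. Bmp4 changed by 1.67 ± 0.36 and the pseudoreceptor Bambi by 1.48 ± 0.14. Bmp8a was called higher (1.55 ± 0.39, adjusted p = 0.0149), but not without S5 (1.16) or S6 (1.56).

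The ligands Bmp6, Gdf10 and Bmp5 were lower in mOBs. Bmp6 changed by -3.51 ± 0.29, Gdf10 by -2.22 ± 0.18 and Bmp5 by -2.12 ± 0.21, from 24.6, 48.9, 46.3 and 50.1 CPM to 6.81, 5.16, 13.6 and 10.7 CPM. The antagonist Nog (-1.55 ± 0.30) and the BMP target Id3 (-0.82 ± 0.19, adjusted p = 0.0084) were lower too. Id3 measured 1263, 1134, 466 and 263 CPM in eOBs and 603, 580, 251 and 226 in mOBs.

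Genes of suture mesenchyme, stroma and progenitors had 7 higher, 13 lower and 11 not called of 31 tested (median -0.92). The median was -0.35 without S1, -0.58 with marker removal and 0.50 with cells thinned to 2000 UMIs, where 7 were higher and 7 lower of 21. Cxcl12, the chemokine of reticular stromal cells, measured 1569, 883, 87.3 and 163 CPM in eOBs and 30.6, 75.4, 29.4 and 16.6 in mOBs. The eOBs of S1 and S2 stood far above those of S5 and S6, and each library fell. The change was -3.45 ± 0.52 (adjusted p = 0.000563), -2.83 without S1 and -4.08 without S5, and averaged -4.59 over S1 and S2 and -2.39 over S5 and S6. Kitl, the ligand that supports blood progenitors, was at 108, 52.0, 41.0 and 63.1 CPM in eOBs and 1.70, 5.16, 3.76 and 3.06 in mOBs (-4.07 ± 0.36, adjusted p = 1.56e-05, and -2.85 with marker removal). Igf1, a growth factor, went from 702, 780, 157 and 210 CPM to 29.8, 46.5, 38.1 and 28.4 (-3.41 ± 0.45, adjusted p = 0.000258), and the leptin receptor gene Lepr changed by -3.15 ± 0.31.

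Matrix genes on the same list changed in both directions. Dcn, Lum and Tnn were higher, Fbn1, of elastic fibres, was lower at -2.58 ± 0.35, and Aspn, Fmod, Ogn, Fbn2, Tnc and Mfap4 were not called. The small proteoglycan Dcn was even across eOBs, at 821, 835, 804 and 784 CPM, and measured 3031, 2650, 2214 and 2490 CPM in mOBs (1.67 ± 0.13, adjusted p = 5.9e-06). Its relative Lum went from 815, 893, 823 and 1070 CPM to 1569, 1221, 2483 and 2982 (1.13 ± 0.17, adjusted p = 0.000614). Neither gene's stages overlapped. Tnn, a tenascin of the periosteum, changed by 3.20 ± 0.44 (4.06 without S5), the collagen-degrading protease gene Ctsk by 2.03 ± 0.18 and Pdgfra, a growth factor receptor of mesenchyme, by 0.88 ± 0.15. In haematopoietic-like cells of these libraries Ctsk took 0.0954% of UMIs on average, against 0.0150% in eOBs and 0.0439% in mOBs. With marker removal the call of Pdgfra was lost (0.59).

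Periostin was split between the libraries of the kit versions. Postn was at 344, 400, 462 and 463 CPM in eOBs and 517, 471, 5510 and 6202 in mOBs, and its mean change was 0.41 over S1 and S2 and 3.66 over S5 and S6. The change over all 4 libraries was 2.06 ± 0.54 (adjusted p = 0.0175). Without S5 it was 1.53 (adjusted p = 0.0902), without S6 1.42 (adjusted p = 0.13) and without S1 2.67 (adjusted p = 0.00743).

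Of 16 tested signals to osteoclasts and other cells 7 were lower and 2 higher (median -0.67), and without S5 or S6 1 was higher. Tnfsf11 (RANKL), which drives osteoclast formation, was at 34.7, 88.7, 15.2 and 42.4 CPM in eOBs and 6.81, 9.30, 8.94 and 9.83 in mOBs, with no overlap (-1.94 ± 0.32, adjusted p = 0.00112). Its decoy receptor gene Tnfrsf11b was at 10.9, 0, 15.2 and 13 CPM in eOBs and 6.81, 8.26, 8.71 and 6.56 in mOBs and was not called (-0.65 ± 0.43, adjusted p = 0.33). Cthrc1, a secreted protein of OBs and osteoclasts, rose by 2.12 ± 0.34 (adjusted p = 0.000875).

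Of 19 hormone receptors and genes of the IGF system 2 were higher, 5 lower and 12 not called (median -0.28), with 11 lower on library totals (median -0.71) and 8 by limma. The higher ones were Pth1r and Fgfr1. Pth1r, the receptor of parathyroid hormone, went from 328, 361, 131 and 136 CPM to 591, 654, 491 and 384 (1.28 ± 0.17, adjusted p = 0.000289), with no overlap, and the FGF receptor gene Fgfr1 changed by 0.97 ± 0.14 (adjusted p = 0.000437). A pair of IGF-binding protein genes were called lower only with certain libraries in the fit. Igfbp3 changed by -3.53 ± 0.71, -4.74 without S5 and, no longer called, -2.40 without S6, and Igfbp4 by -1.92 ± 0.46 and, no longer called, -1.47 without S2. With marker removal the change of Igfbp3 was -0.55 (adjusted p = 0.62). The vitamin D receptor gene Vdr (0.63 ± 0.22, adjusted p = 0.0605) and Igfbp5 (-0.32 ± 0.46) were not called.

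Among junction, adhesion and bone surface genes 12 of 30 tested were higher and 5 lower, with a median of 0.30 that was 0.56 without S1 and 0.52 without S2. On library totals 8 were higher and 9 lower (median -0.15). Ptprz1, a receptor phosphatase, rose from 8.68, 3.06, 19.8 and 13.8 CPM to 151, 285, 367 and 346 (4.41 ± 0.25, adjusted p = 8.67e-07). N-cadherin (Cdh2) changed by 1.06 ± 0.18 (adjusted p = 0.00141). The gap junction gene Gja1 (0.01 ± 0.31) and the cadherin gene Cdh11 (0.33 ± 0.21) were not called, and both were lower in the mOBs of S1 and S2 and higher in those of S5 and S6.

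Itga1, Limch1 and Mmp13 were among the lower genes. Itga1, an integrin chain that binds collagen, went from 132, 82.5, 76.7 and 134 CPM to 5.11, 9.30, 5.88 and 5.68 (-4.03 ± 0.27, adjusted p = 2.8e-06). Limch1, an actomyosin regulator, was at 1195, 1455, 289 and 684 CPM in eOBs and 136, 198, 44.0 and 69.9 in mOBs (-2.99 ± 0.19, adjusted p = 2.25e-06), with a mean change of -3.0 over S1 and S2 and -2.99 over S5 and S6. Neither gene's stages overlapped. The collagenase gene Mmp13 was called lower (-1.47 ± 0.44, adjusted p = 0.0338), but not without S2 (-1.18, adjusted p = 0.18).

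Part of the cell cycle genes were lower in mOBs, and more were called from dOBs to mOBs. Of 39 tested S phase and mitosis genes 14 were lower, 1 higher and 24 not called (median -0.68), and from dOBs to mOBs 34 were lower (7.14% of all genes) and 1 higher. Without S5 the first count of lower genes was 8 and without S6 it was 7, while on library totals 30 were lower (median -1.11) and with cells taken at 1 or more UMIs of the selection genes 29 of 41. With marker removal 5 of 38 were lower (median -0.19), and with cells of at least 3 erythroid markers removed too, which left eOB and mOB sums in S5 and S6 alone, 6 were lower and 3 higher (median -0.28). The replication helicase gene Mcm4 measured 24.6, 42.8, 43.6 and 25.9 CPM in eOBs and 8.51, 18.6, 11.8 and 11.8 in mOBs (-1.49 ± 0.19, adjusted p = 0.000183), and Pcna, the replication clamp, changed by -0.91 ± 0.15. Top2a, a topoisomerase of dividing cells, averaged 123 CPM in eOBs, 220 in dOBs and 81.0 in mOBs, and its change from dOBs to mOBs was -1.43 (adjusted p = 0.00237).

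Mki67, the proliferation marker, was at 42.7, 94.8, 102 and 94.2 CPM in eOBs and 67.2, 62.0, 51.3 and 48.3 in mOBs. It did not pass the test between mOBs and eOBs (-0.56 ± 0.28, adjusted p = 0.18, and 0.0189 without S1) but did between mOBs and dOBs (-1.16, adjusted p = 0.0115). The cell cycle inhibitor gene Cdkn1a was the member called higher (0.77 ± 0.25, adjusted p = 0.0482). Its call was lost without S1 (0.36), S2 (0.80) or S6 (0.85). Mcm3, of the same helicase as Mcm4, changed by -1.13 ± 0.23, and its call was lost without S5 (-0.97).

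Of 16 tested immediate early genes, which tissue dissociation can induce, 7 were lower in mOBs and 0 higher (median -1.63), and on library totals 12 were lower. Socs3, a feedback inhibitor of cytokine signalling, fell from 108, 180, 138 and 131 CPM to 25.5, 26.9, 9.88 and 10.1 (-3.17 ± 0.27, adjusted p = 1.48e-05), in 4 of 4 libraries. Jun, an AP-1 subunit gene, changed by 0.10 over S1 and S2 and by -3.36 over S5 and S6, and Fos, which was not called, by 0.55 and -2.70, and the difference between kits was not tested. Junb (-1.92 ± 0.52) lost its call without S5 (-1.32) or S6 (-1.46). With cells of over 1% Col2a1 left out Socs3 changed by -2.37 and Junb by -1.34, both still called. Without S1 or S2 the number of lower members was 13 or 10 of 18 tested, and without S5 or S6 it was 1 in both cases, with medians of -0.95 and -1.08.

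The counts of higher and lower genes of general metabolism depended on the scaling. Of 79 cytosolic ribosomal protein genes 17 were called higher and 0 lower (median 0.22), but on library totals 0 were higher and 42 lower (median -0.24). Without S1, S2 or S6 the 17 were 6, 5 and 6, and without the library as a block 0. Of 78 nuclear genes of oxidative phosphorylation 7 were higher and 1 lower (median 0.08), and 2 and 48 on library totals (median -0.37). Without S1, S2 or S6 4, 4 and 3 were higher. Ndufa4l2, a subunit-like protein known from hypoxia, rose from 42.7, 33.6, 54.2 and 36.3 CPM to 97.0, 167, 220 and 195 (1.95 ± 0.30, adjusted p = 0.000682).

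Genes of the mitochondrial genome are given only as a description, since the cell rule kept mitochondrial UMIs under 10%. Of 13 such genes 1 was higher, mt-Co1 at 0.39 ± 0.09 (adjusted p = 0.00684), with a median of 0.22, and on library totals 0 were higher and 5 lower, with a median of -0.23 and mt-Co1 at -0.06. The mt-Co1 call was lost without S2 (0.39, adjusted p = 0.052) or S6 (0.37, adjusted p = 0.0696). Of 20 genes of glycolysis and glucose uptake 3 were higher and 2 lower (median -0.06, or 1 and 11 with -0.50 on library totals), shares near the 11.8% and 10.5% of all genes. Without S5 1 was higher and 1 lower, and without S6 1 and 2. The glucose transporter gene Slc2a1 was lower at -1.43 ± 0.29 and the lactate transporter gene Slc16a3 higher at 2.44 ± 0.29. The calls of Pdk1, a kinase that restrains pyruvate oxidation (0.84 ± 0.24), and of the glycolytic enzyme gene Pgk1 (0.42 ± 0.12) were each lost without 1 library: for Pdk1 without S1 (0.55), S5 (1.03) or S6 (1.03), and for Pgk1 without S2 (0.38), S5 (0.49) or S6 (0.35). Pgk1 was at -0.01 on library totals.

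In 31 genes the level in dOBs was called higher than in both other stages, and in 20 it was called lower. Sfrp2, a secreted Wnt modulator of mesenchyme, was at 7.96, 6.11, 66.8 and 201 CPM in eOBs, 120, 26.7, 364 and 580 in dOBs and 9.36, 2.07, 84.7 and 168 in mOBs, with a change of 2.41 into dOBs (adjusted p = 0.00195) and -2.40 out of them (adjusted p = 0.000539). The dOB value was the highest of the 3 in each library. Eln (elastin) was at 118, 30.6, 50.9 and 45.8 CPM in eOBs, 417, 98, 198 and 202 in dOBs and 23.8, 38.2, 110 and 75.4 in mOBs (1.89 in, adjusted p = 0.0285, and -1.68 out, adjusted p = 0.0174), and the elastic fibre gene Mfap4 changed by 1.68 and -1.77. Kcnb2, a potassium channel gene, and Mgat4c, a glycosyltransferase gene, were measured almost in S5 and S6 alone, with Kcnb2 at 5.47, 2.23, 76.9 and 95.1 CPM in dOBs.

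Among the genes lowest in dOBs were Cdkn1a, Pdgfd, Fry, St3gal6 and Magi1. Magi1, a scaffold of cell junctions, was at 9.41, 12.2, 173 and 180 CPM in eOBs, 7.03, 4.45, 31.3 and 40.3 in dOBs and 9.36, 15.5, 118 and 102 in mOBs (-2.11 in, adjusted p = 0.00055, and 1.57 out, adjusted p = 0.00107). Its change between eOBs and mOBs (-0.54, not called) turned to 0.85 with marker removal. St3gal6, a sialyltransferase, was at 90.4, 128, 93.2 and 109 CPM in eOBs, 26.6, 46.8, 19.9 and 24.6 in dOBs and 68.9, 64.0, 40.0 and 40.2 in mOBs.

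The largest falls held genes of other cell types. By the naming rule the 10 genes that fell most were Cd93, Slc35f1, Flt1, Gdpd2, Rapgef5, Pecam1, Adgrf5, Col4a1, Cav1 and Olfml2a, of which Cd93, Flt1 and Pecam1 are known from endothelium. Pecam1, an endothelial adhesion molecule, was at 16.6, 9.17, 162 and 125 CPM in eOBs and 2.55, 1.03, 4.94 and 1.75 in mOBs (-5.02 ± 0.73, adjusted p = 0.00048, and -4.31 without S6). Cd93 changed by -5.51 ± 0.90 (-6.13 without S1, -4.24 without S6), the VEGF receptor gene Flt1 by -5.13 ± 0.96 (-5.76 without S5, -3.92 without S6) and the caveolin gene Cav1 by -4.54 ± 0.54 (-5.41 without S5, -3.70 without S6). Slc35f1 was at or near 0 in S1 and S2 at both stages and at 231 and 220 CPM in the eOBs of S5 and S6 (-5.44 ± 0.31, and -3.84 with cells of over 1% Col2a1 left out). Olfml2a, an extracellular matrix protein gene, was at 75.3, 150, 46.3 and 84.7 CPM in eOBs and 10.2, 10.3, 0.706 and 1.53 in mOBs (-4.51 ± 0.42, and -5.13 without S1).

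Endothelial markers fell with them. Of 6 tested 6 were lower (median -5.06), and without S1 2 of 2. The summed level of the 8 markers was 0.00249% to 0.0803% of UMIs in eOBs, lowest in S2 with Emcn, Esam, Kdr and Tek at 0, and 0.00117% to 0.00196% in mOBs. Cells with at least 3 of these markers made up 3.81% ± 2.71 of eOBs and 0.167% ± 0.334 of mOBs (n = 4, two-sided exact sign-flip test, p = 0.25).

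Smooth muscle and pericyte markers moved the same way. Of 6 tested 5 were lower (median -4.14), or 2 of 4 without S1, and the 8 markers summed to 0.0433% to 0.0838% of UMIs in eOBs and 0.00648% to 0.0221% in mOBs. Myh11, too rare to test, had 6, 1, 3 and 0 UMIs in the eOBs of S1, S2, S5 and S6 and 0 in the mOBs of all 4 libraries. Cells with at least 3 of them were 16.3% ± 1.91 of eOBs and 2.13% ± 2.03 of mOBs, lower in 4 of 4 (two-sided exact sign-flip test, p = 0.12, the smallest possible). Notch3, the Notch receptor of mural cells, fell from 90.4, 116, 52.2 and 121 CPM to 11.1, 12.4, 8.0 and 7.43 (-3.28 ± 0.21, adjusted p = 2.12e-06). Acta2, smooth muscle actin, was called lower (-1.43 ± 0.46), but not without S1 (-1.13), S2 (-1.03) or S6 (-1.91).

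Of 10 tested chondrocyte markers 8 were lower (median -3.23), and without S5 or S6 3 were. DESeq2 called 2 of them lower, limma 1, edgeR without the library as a block 0 and with only the 2 stages in the fit 3. Their 12 listed genes summed to 0.157% and 0.00716% of UMIs in the eOBs of S1 and S2 and to 3.7% and 2.54% in those of S5 and S6, against 0.156% to 0.387% in mOBs, with Col10a1 and Ihh at 0 in the eOBs of all 4 libraries. Col2a1 took over 1% of UMIs in 1 eOB of S1, 0 of S2, 39 of S5 and 14 of S6. At least 3 chondrocyte markers were found in 7.41% to 19.5% of the OBs of S1 and S2, by stage, and in 92% to 99.2% of those of S5 and S6.

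For the remaining marker lists the calls depended on the setting. Of 7 haematopoietic and 5 erythroid markers tested 0 were called by edgeR (medians -0.74 and -1.42, with 0 and 2 at an unadjusted p under 0.05), and by limma 1 erythroid marker was lower. Without S2, and also with only the 2 stages in the fit, 3 of 4 erythroid markers were called lower (medians -2.38 and -1.78). With cells taken at 1 or more UMIs of the selection genes 5 of 9 haematopoietic and 6 of 7 erythroid markers were lower, and with no low-count filter 2 of 11 and 6 of 8. Haematopoietic markers summed to 0.00601% to 0.101% of UMIs in eOBs and 0.000957% to 0.0671% in mOBs, and erythroid markers to 0.0196% to 2.7% and 0.00952% to 1.27%, highest in S2 at both stages. Of 2 osteoclast markers Mmp9, a gelatinase, was lower at -3.71 ± 0.40 (adjusted p = 6.64e-05, and -3.05 without S6). Of 3 fibroblast markers Dpt (1.66 ± 0.49) and Gsn (1.56 ± 0.11) were higher and Cd34 lower (-3.43 ± 0.89), and without S6 1 was higher and 0 lower.

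The part of such cells in the falls was not tested as a whole. Marker removal left 1817 calls, of which 1564 were among the 2264. The change was then -3.89 for Cxcl12, -3.14 for Limch1 and -2.78 for Sox9, with cells of chondrocyte markers still in. It was 6.91 for Bglap and 3.0 for Creb3l1. Of the 10 largest falls Cd93, Flt1, Rapgef5, Pecam1, Adgrf5 and Cav1 were then too low to test, as were the endothelial markers used in the removal. The change of Col4a2 was then -1.77, and the calls of Igfbp3, Mcm3 (-0.83), Pdk1 (0.48), Pgk1 (0.23), Bmp8a (0.98), Pdgfra and Cdkn1a (0.74) were lost. With cells of over 1% Col2a1 left out, those of Msx2 (-0.79), Pdia6 (-0.24), Acta2 (-0.90) and Cdkn1a (0.63) were lost.

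**Figure D4:**
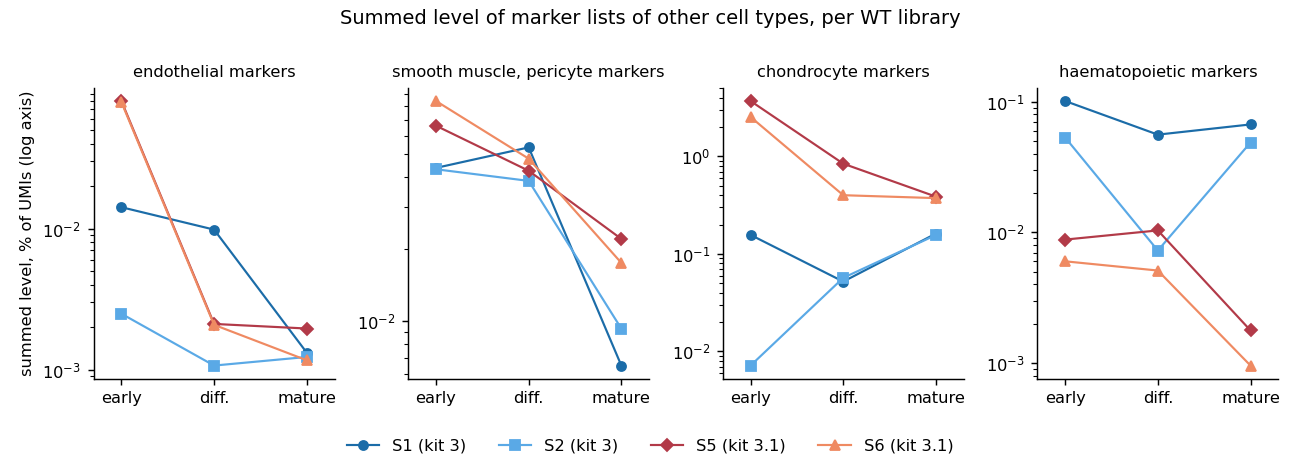
Summed level of endothelial, smooth muscle and pericyte, chondrocyte and haematopoietic markers, in % of UMIs on a log axis, at the 3 stages in each WT library (blues, kit version 3; reds, kit version 3.1). Endothelial and smooth muscle markers are lower in mOBs than in eOBs in each library, and chondrocyte markers are highest in the eOBs of S5 and S6.

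The 4 Het libraries, which share no library with the WT comparison, give the same stages in samples that had no part in these calls. In Het OBs, 130 of them eOBs and 418 mOBs, 1762 of 9685 genes differed between mOBs and eOBs (18.2%), 973 higher (10%) and 789 lower (8.15%). Of the 2261 WT calls 2130 could be tested in Het libraries, and 2067 of them (97.0%) had the same direction there, against 71.1% of the 7435 genes not called in WT. Of the WT calls 1250 were also called in Het in the same direction, which is 55.3% of the WT calls and 71.1% of the Het calls. Ank2, an ankyrin gene (-0.78 in WT, 0.70 in Het), and Slc1a5 (-0.91 and 1.36), named after their values were seen, were called in opposite directions, with an adjusted p of the difference of 0.316 for both.

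Among the leading genes Bglap changed by 5.70 in Het libraries (adjusted p = 5.04e-05), Phex by 2.93, Ifitm5 by 5.13, Creb3l1 by 3.41 and Cxcl12 by -3.03, each in the direction seen in WT. Whether the change between eOBs and mOBs differed between the genotypes was tested as a genotype by stage term. It was called for 0 of 10857 genes by edgeR (561 at an unadjusted p under 0.05) and for 3 by DESeq2. Those 3, named after their values were seen, were Eif4ebp1 (1.53 higher in Het, adjusted p = 0.0021), Malat1 (0.44, adjusted p = 0.0266) and Atp13a3 (1.47, adjusted p = 0.0286). Of the 28 stress response genes tested in WT, 24 were called higher in Het libraries (median 1.97, against 10% higher over all genes there). In WT 11 were called higher (median 0.43, against 11.8% over all genes), and the difference of these counts was not tested. Atf5, which was not called in WT, changed by 2.26 in Het libraries, and the difference had an adjusted p of 0.255.

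**Figure D5:**
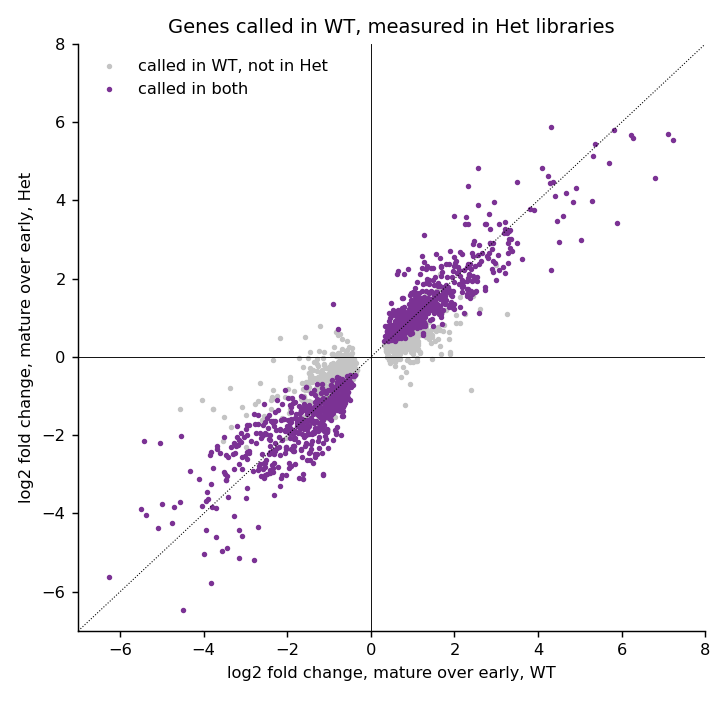
Log2 fold change of mOBs over eOBs in Het libraries against that in WT libraries, for genes called in WT and tested in both. Purple points are genes called in both genotypes, grey points those called in WT alone, and the dotted line marks equal change, with 2067 of 2130 points in the quadrants of equal sign.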

How the data were processed

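Droplet RNA-seq of parietal bone cells was deposited by the authors as raw UMI counts per gene and cell, made with Cell Ranger (5.0.0 for S1 to S4 and 6.0.1 for S5 to S8, per the file headers) on mm10, with filtered barcodes. The annotation release was not given in the sources used here. Of 31053 gene identifiers 31011 (99.9%) were found in GENCODE M21, which gave positions, and promoter windows came from RefSeq.

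Cells were filtered and staged as in the report, and UMIs were summed per library and stage, with at least 10 cells a sum. Genes were filtered with filterByExpr, scaled by TMM and tested with edgeR 4.0.16 (glmQLFit, glmQLFTest, R 4.3.3) on the 12 WT sums, with stage and library as terms and Benjamini-Hochberg adjustment over all genes tested. The library was a block because the stages of a library came from the same pool of pups. Het sums were fitted alike, and a genotype by stage term over all 8 libraries. DESeq2 1.42.0 and limma 3.58.1 (on log2 of the mean over cells of CPM + 1) were alternatives. Marker classes, simulated doublets and exact tests used Python 3.11.15, numpy 2.4.6, pandas 2.3.3, scipy 1.17.1 and scikit-learn 1.9.0. On counts simulated for this comparison 162 of 200 changed genes were recovered with 6 false calls among 9994 genes. The simulation changed fewer genes than were called in the data, equally in both directions, so it does not test the scaling.

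Named genes were a set of known OB genes, the 3 largest called rises and falls of each list, the 10 largest over all genes, and 5 genes each highest or lowest in dOBs. All but the first set had at least 20 CPM, and those of the lists and the largest changes had the same direction in every WT library that held a UMI of the gene (Slc35f1 and Cav1 had none in S2 at either stage). Of the first set 1 gene is not reported here. Other list members named were picked for their known function with their values seen. The members and lists were chosen with earlier results of these data known. Alternatives changed the test, scaling, filters, selection, stage limits and cells, or left out a library. Scaling by library totals and the removal of cells by markers without the erythroid ones were chosen after seeing the data. UMI sums limit the precision of low genes, most in the eOBs of S2.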

Additional observations from a re-analysis of the deposited data

Results flagged for a closer look

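In 125 genes the 4 WT libraries' log2 ratios of mOBs to eOBs were checked for 1 library far from the others by Dixon's test. Chance flags about 1 in 20 such groups, and 5 were flagged. Pdk1 was 1.99 in S1 and 0.50 to 0.58 in the others. Sox9 was -0.89 in S2 and -2.83 to -2.67 in the others, and it was lower in mOBs in all 4. Tcf7 was 2.72 in S1 and 2.29 to 2.33 in the others. Tnfrsf11b was 3.56 in S2, where no UMI was found in eOBs, and -0.91 to -0.62 in the others. Mt-Co1 (mt-Co1) was 0.23 in S5 and 0.44 to 0.45 in the others.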

How the results depend on the processing

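No gene called between mOBs and eOBs was called in the opposite direction under any alternative, except 1 with cells holding at least 3 markers of any other class but the chondrocyte one left out (which left eOB and mOB sums in S5 and S6 alone) and 1 with Col2a1-high cells left out. The count of 2264 was 2031 by DESeq2 (1952 of the same genes) and 2257 with RLE factors. It was 4826 on library totals (1655 of the same genes), 695 without the replicate block (all 695 among the 2264), 1419 with only the 2 stages in the fit and 528 with cells thinned to 2000 UMIs, where 3492 genes could be tested. Without the low-count filter 3137 genes were called, and with at least 1 UMI of the selection genes 3034. By limma on means over cells 2559 were called, 430 higher and 2129 lower. Leaving out 1 library gave 1269 to 2020 calls, fewest without S6, and 1503 without S5. The count from eOBs to dOBs (484) was 1360 with no low-count filter, 6 without the block, 990 and 236 with at least 1 and at least 3 UMIs of the selection genes, 157 with thinned cells, 1020 with the same cells left out, 109 by limma and 61 to 725 without 1 library. The count from dOBs to mOBs (1581) was 4084 on library totals, 182 without the block, 310 with thinned cells and 552 to 1363 without 1 library. The Het count (1762) was 599 without the block and 1009 to 1822 without 1 library. The genotype by stage count (0) was 3 by DESeq2, 116 with no low-count filter and 0 to 5 without 1 library. Of named genes called here or under the alternative, signs turned for Bmp8a (-0.041) by limma, for Cav1 (0.36), Magi1 (0.85) and Mfap4 (0.70) without these cells, and for Magi1 (0.85) when erythroid markers did not count. They also turned for Hspa9 (-0.37), Pgk1 (-0.013) and mt-Co1 (-0.063) on library totals, for Pgk1 (-0.012) and mt-Co1 (-0.0063) by limma and for Sfrp2 (-1.76) with limits of 5% and 0.5%. Among named genes called in neither, 63 further signs turned over 15 genes, 9 of them by limma and 9 on library totals. Of the named genes 32 lost their call without the block, among them Dmp1 and Pth1r. Where a construction such as fewer genes or samples does not show it, the cause was not tested. Depth limits genes low in the eOBs of S2, whose sum held 321048 UMIs.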

Other observations

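Mepe, a gene of late OBs and osteocytes, was too rare to test. The eOBs of S1 held 95 of its UMIs, from 3 cells, with 69 in 1 cell. Each other WT sum held 0 to 3 UMIs. Col10a1, a marker of hypertrophic cartilage, had 67 UMIs in the mOBs of S6, from 3 cells, with 55 in 1 cell, and 0 to 2 in each other WT sum.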
